A study of Mus musculus with 8 samples.

Results

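The complement components and regulators are 33 of the 54532 genes in a table of mouse liver expression. They were taken by gene symbol from a list that covers the classical, lectin, alternative and terminal pathways and the proteins that hold them in check, a rule that uses names alone. All 33 symbols were in the table. RNA-seq was performed on livers of 4 METTL3-HKD and 4 METTL3-Flox mice, and all 8 mice underwent 1 h of partial hepatic ischemia followed by 6 h of reperfusion. METTL3 is the enzyme that writes N6-methyladenosine on RNA. METTL3-HKD mice (METTL3 flox/-; Alb-iCre) are heterozygous mice with 1 floxed allele and a Cre recombinase driven by the albumin promoter, which is active in hepatocytes. METTL3-Flox mice (METTL3 flox/flox) are littermate controls for which no Cre is listed. Livers without ischemia were not analysed here, so each level below is that of an injured liver, and the age of the sequenced mice is not given separately. The labels number the mice, so a p-value here measures the spread between mice.

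Complement is a cascade of plasma proteins that marks foreign or damaged surfaces and pierces membranes. The classical pathway starts at bound antibody, the lectin pathway at sugars on a surface and the alternative pathway on C3 itself, and all of them cleave C3 and then C5, after which C6 to C9 assemble into the membrane attack complex. Hepatocytes make most of the circulating components, macrophages make part of the recognition molecules and properdin, and soluble and membrane-bound regulators limit the cascade on the body's own cells.

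Whole reads rebuilt from the deposited FPKM (fragments per kilobase of gene, scaled to library size) gave 15861245 to 17262991 reads on genes in METTL3-Flox and 15961479 to 18434488 in METTL3-HKD livers. The 7 hepatocyte markers in the table summed to 23794 to 34742 FPKM in METTL3-HKD and 30273 to 35760.0 FPKM in METTL3-Flox livers, so the tissue label held in every library. The 8 neutrophil markers summed to 330.0 to 1622 FPKM in METTL3-HKD and 12.8 to 44.8 FPKM in METTL3-Flox livers, and the 7 Kupffer cell markers to 71.3 to 149 FPKM in METTL3-HKD and 149.8 to 342 FPKM in METTL3-Flox livers. Values per liver are given below in the order of replicates 1 to 4, and ± stands for the SD of a mean of 4 livers and for the SE of a log2 fold change. Mettl3 itself was at 1.56, 1.39, 1.17 and 1.20 FPKM in METTL3-HKD and at 1.84, 1.16, 1.45 and 1.54 FPKM in METTL3-Flox livers. Its groups overlapped (log2 fold change -0.16 ± 0.17, adjusted p = 0.556). The paper floxed exon 4, and a gene-level value does not show a single exon, so it does not check the labels. Of the 5076 exon bases of Mettl3, 933 are also shared with Tox4 on the opposite strand.

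Of the 33 members, 31 reached the minimum mean of 0.1 FPKM and were tested. In METTL3-HKD livers 16 of them were lower than in METTL3-Flox livers at an adjusted p under 0.05 (limma over all 16645 genes tested), none was higher, and 15 did not pass. Among all genes tested, 6.63% were lower and 9.05% were higher by the same rule. The members that were lower made up 51.6% of those tested. The RNA came from liver tissue with all its cell types, in which fewer cells of a type and less RNA per cell cannot be told apart. Of these, 4 members, C6, C8b, C9 and Colec11, were lower by a log2 fold change of -1 or beyond, against 1.52% of all genes. At an unadjusted p under 0.05, 20 members passed, against 31.9% of all genes. In 17 members every METTL3-HKD liver lay below every METTL3-Flox liver, against 9.95% of all genes, and in 1 member, Mbl2, all 4 METTL3-HKD livers lay above, against 12.7% of all genes. The median log2 fold change was -0.63 over the 31 members and -0.0028 over all genes.

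The count of 16 depended on single livers. It was 8 without METTL3-HKD 1, 8 without METTL3-HKD 2, 8 without METTL3-Flox 2, 6 without METTL3-Flox 3 and 10 without METTL3-Flox 4. The share of all genes called lower fell as well, from 6.63% to 2.87, 3.44, 3.4, 2.13 and 3.35% in the same order. The deposited values had been scaled between libraries, and scaling to the reads on genes instead raised the median of all genes to 0.20 and left 12 members lower and 1 higher. Under that scaling 2309 genes were higher and 374 lower, so that 86.1% of all calls were higher, against 57.7% with the deposited values. The calls of C1ra and Hc were lost without METTL3-Flox 3 and under no other alternative (adjusted p = 0.0578 and 0.0556). Those of Masp1, C6, C8a, C9 and C4bp were each lost without 6 of the 8 livers taken singly, METTL3-HKD 1 and 2 and METTL3-Flox 2, 3 and 4 among them for every gene (adjusted p = 0.0535 to 0.112). Those of C1s1, Cfi and Vtn were lost without METTL3-HKD 1, METTL3-HKD 2, METTL3-Flox 2 or METTL3-Flox 3, and that of C1s1 also without METTL3-Flox 4 (adjusted p = 0.0517 to 0.0803). C2, C4b and C8b were lower in each of the 16 alternatives tried, and no member called lower turned its direction in any of them.

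**Figure D1:**
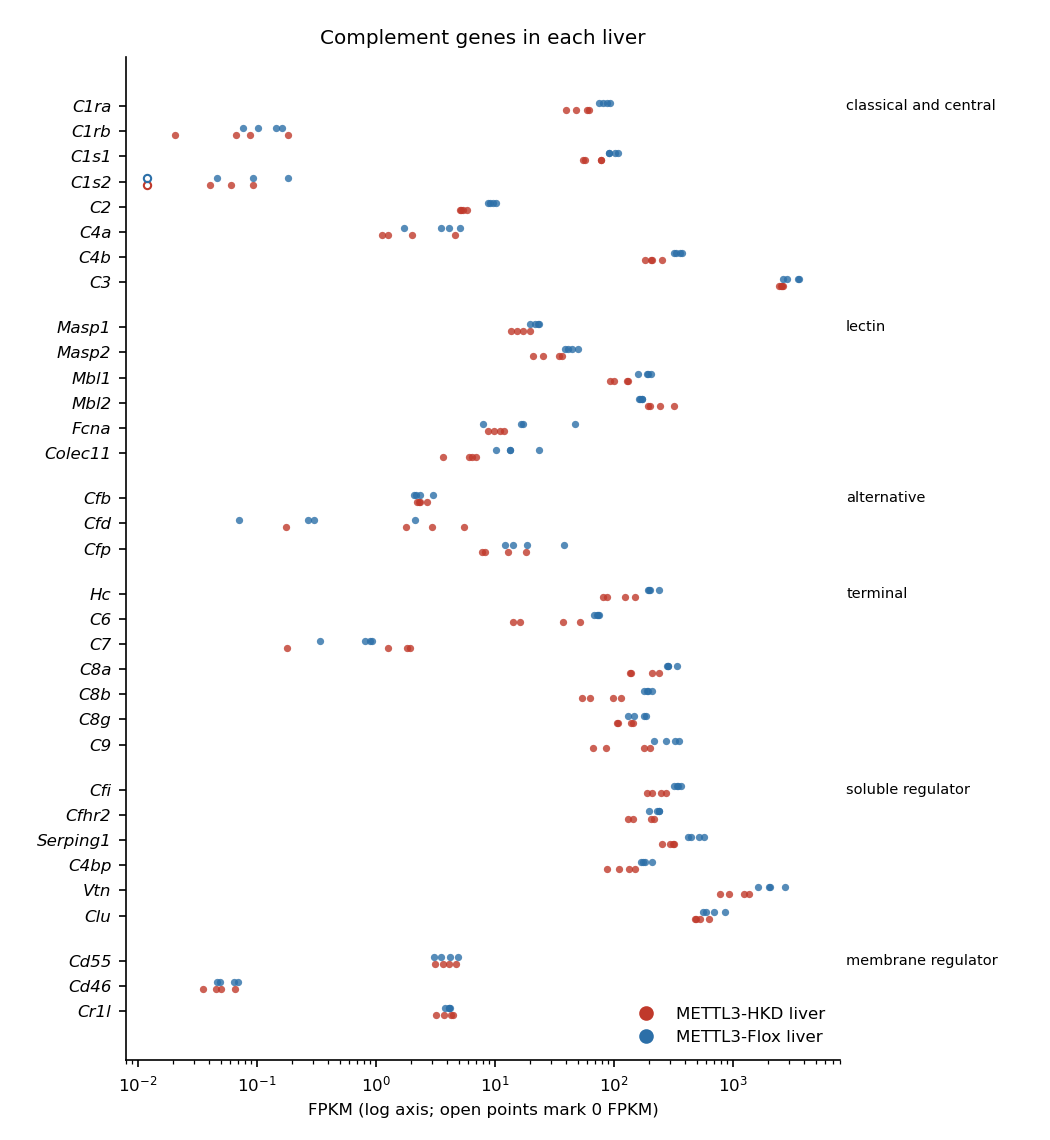
FPKM of the 33 complement genes in each liver on a log axis, 1 row per gene grouped by role, with METTL3-HKD livers in red and METTL3-Flox livers in blue and open points for 0 FPKM. C3 and Vtn stood highest, C1rb, C1s2 and Cd46 lay near or under 0.1 FPKM, and Mbl2 was the only gene in which the METTL3-HKD livers all lay above.

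RefSeq promoters (GRCm38.p6), the 250 bases before a transcript start, were available for 25 of the 33 members. They were searched on both strands for 5 short motifs of factors that act in hepatocytes or in the acute phase. The HNF1 core (GTTAATNAT) was found in 3 members, C4bp, Cfhr2 and Hc, and in 0.737% of all 32851 promoters. The C/EBP motif (TTGCNNAA) was found in 4, C1rb, C1s1, C3 and C9, against 9.56% of promoters, and the STAT motif (TTCNNNGAA) in 5, C1rb, C7, C8a, Colec11 and Masp2, against 7.02%. The NF-kB motif (GGNNTTTCC, in 4.93% of promoters) and the HNF4 motif (CAAAGTCCA, in 0.384%) had no match in these windows. No matches of different motifs shared a base. A match is a string of letters and no measured binding.

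The HNF1 promoters are shown because that motif was the rarest of those found, and the promoters of C3 and C9 because they hold a C/EBP match and only C9 passed the test. They lie at chr1:130661619-130661868 for C4bp, chr1:139858700-139858949 for Cfhr2, chr2:35061413-35061662 for Hc and chr17:57228137-57228386 for C3, all on the minus strand, and at chr15:6445096-6445345 on the plus strand for C9. The capitals mark the HNF1 core, in either orientation, in C4bp, Cfhr2 and Hc, where it begins 64, 110 and 77 bases before the start, and the C/EBP motif in C3 and C9, where it begins 45 and 132 bases before it. The deposited gene models of C4bp, Cfhr2, Hc and C9 begin within these windows.
C4bp: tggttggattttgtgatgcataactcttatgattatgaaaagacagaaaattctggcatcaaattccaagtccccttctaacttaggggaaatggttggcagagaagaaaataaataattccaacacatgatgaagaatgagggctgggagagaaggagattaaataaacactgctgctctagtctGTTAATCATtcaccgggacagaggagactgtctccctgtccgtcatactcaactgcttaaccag
Cfhr2: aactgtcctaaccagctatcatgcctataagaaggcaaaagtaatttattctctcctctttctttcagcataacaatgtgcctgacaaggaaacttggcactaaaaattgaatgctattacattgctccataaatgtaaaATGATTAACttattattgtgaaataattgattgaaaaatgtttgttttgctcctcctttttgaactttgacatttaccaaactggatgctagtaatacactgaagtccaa
Hc: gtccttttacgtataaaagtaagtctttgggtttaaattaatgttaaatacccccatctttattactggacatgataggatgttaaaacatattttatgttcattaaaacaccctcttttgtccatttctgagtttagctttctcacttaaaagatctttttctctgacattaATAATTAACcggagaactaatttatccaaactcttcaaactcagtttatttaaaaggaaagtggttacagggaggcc
C3: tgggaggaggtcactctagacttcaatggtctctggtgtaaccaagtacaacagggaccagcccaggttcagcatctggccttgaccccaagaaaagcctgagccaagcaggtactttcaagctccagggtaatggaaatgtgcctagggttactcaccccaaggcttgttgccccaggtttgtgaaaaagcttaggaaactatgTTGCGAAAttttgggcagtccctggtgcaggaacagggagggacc
C9: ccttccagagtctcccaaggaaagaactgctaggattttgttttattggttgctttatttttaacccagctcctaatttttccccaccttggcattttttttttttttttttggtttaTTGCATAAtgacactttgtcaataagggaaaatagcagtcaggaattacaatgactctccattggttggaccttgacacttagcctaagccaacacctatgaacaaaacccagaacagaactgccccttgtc
Hc and C4bp were lower in METTL3-HKD livers and Cfhr2 was not called. C9 was lower and C3 was not called, as described below with their values.

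The classical pathway begins with C1r and C1s, the proteases of the C1 complex, which cleave C4 and C2. Of the 8 classical and central members, 7 were tested and 4 were lower, namely C1ra, C1s1, C2 and C4b. C2, the protease part of the classical C3 convertase, was at 5.11, 5.45, 5.89 and 5.27 FPKM in METTL3-HKD and at 9.67, 9.09, 10.2 and 8.78 FPKM in METTL3-Flox livers. The METTL3-HKD livers all lay well under the METTL3-Flox livers, with a mean of 5.43 ± 0.338 against 9.44 ± 0.641 FPKM (n = 4 in each group). This was a 1.73-fold lower level (log2 fold change -0.79 ± 0.09 on the log2(FPKM + 0.1) scale, adjusted p = 0.00272), the smallest adjusted p of any member. Of the exon bases of C2, 42.8% are shared with the gene Gm20547 on the same strand, as described below with Cfb. C4b, the main C4 gene of the liver, was at 182, 209, 257 and 208 FPKM in METTL3-HKD and at 361, 332, 376 and 320.0 FPKM in METTL3-Flox livers. The groups again did not overlap (log2 fold change -0.71 ± 0.13, adjusted p = 0.0109). The ratio of C2 to C4b within a liver was 0.0256 ± 0.00212 against 0.0272 ± 0.000309, and the groups overlapped in it.

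C1ra was at 39.5, 48.2, 59.7 and 61.9 FPKM in METTL3-HKD and at 81.2, 87.3, 93.0 and 74.9 FPKM in METTL3-Flox livers. C1s1 was at 55.7, 57.6, 78.4 and 78.0 FPKM in METTL3-HKD and at 92.4, 109, 103 and 90.8 FPKM in METTL3-Flox livers. In both genes METTL3-HKD 1 and 2 were the lowest of all livers, METTL3-HKD 3 and 4 lay between them and the METTL3-Flox livers, and the groups did not overlap. The log2 fold change was -0.70 ± 0.15 for C1ra (adjusted p = 0.0187) and -0.56 ± 0.14 for C1s1 (adjusted p = 0.0297). The call of C1s1 was lost on the scale of reads on genes (log2 fold change -0.35, adjusted p = 0.0772). Within a liver the ratio of C1ra to C1s1 was 0.775 ± 0.0536 against 0.853 ± 0.0456, with overlap, so that no difference in the balance of the proteases was detectable with 4 livers a group. Their copies C1rb (0.0896 ± 0.0681 against 0.122 ± 0.0393 FPKM) and C1s2 (at most 5 reads in a METTL3-HKD and 7 reads in a METTL3-Flox liver) were close to absent. Of the 50-base windows in C1ra transcripts, 50.8% also occur in another gene, mainly C1rb, and for C1s1 the share is 21.8%, so a read there cannot be placed with certainty.

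C3, the protein on which all pathways meet, had the highest level of any member and was at 2454, 2584, 2545 and 2663 FPKM in METTL3-HKD and at 3608, 2890.1, 3534 and 2634 FPKM in METTL3-Flox livers. The METTL3-HKD livers lay close together, and METTL3-Flox 4 fell among them, so that the groups overlapped. C3 was not called (log2 fold change -0.29 ± 0.18, 95% interval -0.71 to 0.12, adjusted p = 0.300, exact permutation p = 0.0571). C4a, the other C4 gene, averaged 2.27 ± 1.65 against 3.63 ± 1.40 FPKM, its groups overlapped, and 30.6% of its 50-base windows are shared with C4b, as are 34.6% of those of C4b with C4a (log2 fold change -0.78 ± 0.46, adjusted p = 0.271). C1rb was not called either (log2 fold change -0.27 ± 0.35, adjusted p = 0.633). Summed over the 8 genes, the level was 2738 to 3019 FPKM in METTL3-HKD and 3130.4 to 4158 FPKM in METTL3-Flox livers, most of it C3. C3 made up 35.8 to 44.1% of the summed FPKM of all 33 members in METTL3-HKD and 32.1 to 35.6% in METTL3-Flox livers.

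In the lectin pathway, mannose-binding lectins, ficolins and collectins bind sugars and carry the MASP proteases. All 6 members were tested, and Colec11, Mbl1 and Masp1 were lower. Colec11, which encodes a collectin, was at 3.71, 6.14, 6.49 and 6.94 FPKM in METTL3-HKD and at 23.6, 13.4, 10.3 and 13.5 FPKM in METTL3-Flox livers. No METTL3-HKD liver reached the lowest METTL3-Flox liver, with METTL3-HKD 1 lowest and METTL3-Flox 1 highest. The level was 2.53-fold lower (log2 fold change -1.34 ± 0.27, adjusted p = 0.0153). Mbl1, the serum mannose-binding lectin A, was at 93.4, 101, 129 and 134 FPKM in METTL3-HKD and at 208, 197, 190.1 and 159 FPKM in METTL3-Flox livers, and its groups did not overlap. Its log2 fold change was -0.73 ± 0.15 (adjusted p = 0.0147).

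Mbl2, which encodes mannose-binding lectin C, stood the other way. The gene was at 202, 321, 195 and 245 FPKM in METTL3-HKD and at 173, 163, 165 and 174 FPKM in METTL3-Flox livers. All 4 METTL3-HKD livers lay above all 4 METTL3-Flox livers, with METTL3-HKD 2 far above the others and the METTL3-Flox livers within a narrow band. The difference did not pass the adjusted test (log2 fold change 0.48 ± 0.16, 95% interval 0.12 to 0.84, adjusted p = 0.0696), and its exact permutation p of 0.0286 is the smallest that 4 against 4 livers can give. On the scale of reads on genes it passed (log2 fold change 0.70, adjusted p = 0.0302). The ratio of Mbl2 to Mbl1 within a liver, which no scaling between libraries can move, stood at 2.16, 3.19, 1.51 and 1.83 in METTL3-HKD and at 0.835, 0.829, 0.870 and 1.09 in METTL3-Flox livers. No METTL3-Flox liver reached the lowest METTL3-HKD liver (exact permutation p = 0.0286, adjusted p = 0.0952 over the 10 ratios). The pair was picked by hand and uses the same values as the tests of both genes, so this p is no independent test.

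Masp1, a protease of the lectin complexes, was at 13.6, 15.6, 19.7 and 17.5 FPKM in METTL3-HKD and at 20.0, 23.2, 22.0 and 23.5 FPKM in METTL3-Flox livers. The groups were separated by a narrow gap between METTL3-HKD 3 and METTL3-Flox 1. Its change was the smallest of those that passed (log2 fold change -0.43 ± 0.12, adjusted p = 0.0454), and it did not pass on the scale of reads on genes (log2 fold change -0.21, adjusted p = 0.27). Masp2, the protease that cleaves C4 and C2, was at 21.2, 25.7, 36.9 and 34.7 FPKM in METTL3-HKD and at 39.4, 50.005, 44.9 and 41.6 FPKM in METTL3-Flox livers. Its groups did not overlap either, and it lay just outside the threshold (log2 fold change -0.60 ± 0.18, adjusted p = 0.0512), which it passed in 4 of the 16 alternatives. Of the 3307 exon bases of Masp2, 1817 overlap Tardbp on the opposite strand, which was at 9.84 to 18.7 FPKM, and without a stated strand setting the reads of both genes cannot be told apart there. Fcna, a ficolin made by macrophages, was at 8.85 to 11.9 against 7.95 to 47.3 FPKM, with METTL3-Flox 1 far above the rest, and was not called (log2 fold change -0.80 ± 0.44, adjusted p = 0.243). Of the 7 Kupffer cell markers, Clec4f, Timd4, Cd5l and Slc40a1 were lower in METTL3-HKD livers, against 6.63% of all genes. None of these calls held on the scale of reads on genes (adjusted p = 0.0554 to 0.114). Clec4f and Cd5l kept their calls in 6 of the 16 alternatives, Timd4 in 9 and Slc40a1 in 14. The part of Kupffer cells in Fcna was not tested.

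The alternative pathway amplifies C3 cleavage through factor B, factor D and properdin. None of its 3 members was called. Cfp, the properdin gene, had the highest level and the smallest p of the 3 and was at 18.2, 13.029, 7.81 and 8.28 FPKM in METTL3-HKD and at 38.1, 12.3, 14.3 and 18.6 FPKM in METTL3-Flox livers. METTL3-Flox 1 was highest and the groups overlapped (log2 fold change -0.75 ± 0.38, adjusted p = 0.212). Cfb, the factor B gene, was level between the groups at 2.40 ± 0.215 against 2.43 ± 0.428 FPKM (log2 fold change -0.01 ± 0.14, 95% interval -0.32 to 0.31). In the annotation 79.5% of the exon bases of Cfb and 42.8% of those of C2 also belong to the read-through gene Gm20547 on the same strand, which is listed at 0 FPKM in all livers, and how reads on shared bases were counted is not stated.

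Cfd, the factor D gene, which is typical of fat tissue, ranged from 0.176 to 5.55 against 0.0713 to 2.15 FPKM. METTL3-HKD 2 lay among the METTL3-Flox livers and METTL3-Flox 2 among the METTL3-HKD livers (log2 fold change 1.83 ± 1.01, adjusted p = 0.243). The 6 adipocyte markers summed to 8.90 to 21.8 FPKM in METTL3-HKD and 3.40 to 16.0 FPKM in METTL3-Flox livers, most of it Cidec, which fatty hepatocytes also express, while Adipoq was at 0 to 0.252 in METTL3-HKD and 0 to 0.314 FPKM in METTL3-Flox livers. The part of attached fat in the Cfd values was not tested.

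C5 to C9 are the terminal components. Here 5 of the 7 members were lower, and 3 of the 4 largest changes called among all members were theirs. C6, which binds C5b and opens the assembly of the membrane attack complex, was at 14.2, 16.3, 51.8 and 37.3 FPKM in METTL3-HKD and at 73.1, 68.1, 75.6 and 74.2 FPKM in METTL3-Flox livers. METTL3-HKD 1 and 2 fell far under METTL3-HKD 3 and 4, and the METTL3-Flox livers lay close together. The level was 2.80-fold lower, the largest change of any member called (log2 fold change -1.49 ± 0.38, adjusted p = 0.0313). C9, whose copies form the ring of the pore, was at 87.3, 67.5, 204 and 181 FPKM in METTL3-HKD and at 326, 354, 278 and 221 FPKM in METTL3-Flox livers. Again METTL3-HKD 1 and 2 lay far under METTL3-HKD 3 and 4, and the groups were separated only by the gap between METTL3-HKD 3 and METTL3-Flox 4 (log2 fold change -1.25 ± 0.35, adjusted p = 0.0434). The ratio of C6 to C9 within a liver overlapped between the groups.

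Hc, the mouse gene for C5, was at 81.2, 87.3, 153 and 124 FPKM in METTL3-HKD and at 194, 197, 239 and 202 FPKM in METTL3-Flox livers. All METTL3-HKD livers lay below all METTL3-Flox livers (log2 fold change -0.94 ± 0.20, adjusted p = 0.0175). Set against C3 in the same liver, Hc averaged 0.0433 ± 0.0127 against 0.0665 ± 0.00944, with METTL3-HKD 3 above METTL3-Flox 1 (exact permutation p = 0.0571, adjusted p = 0.143 over the 10 ratios). C7, which follows C6 in the assembly, was near 1 FPKM at 0.182 to 1.95 against 0.344 to 0.925 FPKM. It was not called (log2 fold change 0.48 ± 0.61, 95% interval -0.90 to 1.85).

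The C8 protein is built from an alpha, a beta and a gamma chain, each with its own gene. C8b, the beta chain, was at 54.1, 63.5, 115 and 98.9 FPKM in METTL3-HKD and at 196, 179.8, 209 and 189.9 FPKM in METTL3-Flox livers. C8a, the alpha chain and the highest of the terminal genes, was at 136, 139, 243 and 209 FPKM in METTL3-HKD and at 285, 283, 343 and 289 FPKM in METTL3-Flox livers. In both genes METTL3-HKD 1 and 2 were lowest and no METTL3-HKD liver reached the METTL3-Flox livers. C8b was 2.45-fold lower (log2 fold change -1.29 ± 0.23, adjusted p = 0.00989) and C8a 1.70-fold lower (log2 fold change -0.76 ± 0.20, adjusted p = 0.0342). The call of C8a was lost on the scale of reads on genes (log2 fold change -0.55, adjusted p = 0.0537). C8g, the gamma chain, averaged 126 ± 20.9 against 162 ± 26.2 FPKM and was not called, with groups that overlapped (log2 fold change -0.36 ± 0.16, adjusted p = 0.154).

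The proportions of the C8 chains were compared as ratios within a liver. C8b to C8a stood at 0.396, 0.456, 0.471 and 0.473 in METTL3-HKD and at 0.690, 0.636, 0.610 and 0.656 in METTL3-Flox livers. Every METTL3-HKD liver lay below every METTL3-Flox liver, and each group was tight (0.449 ± 0.0359 against 0.648 ± 0.0337, exact permutation p = 0.0286, adjusted p = 0.0952 over the 10 ratios). C8b to C8g averaged 0.642 ± 0.131 against 1.22 ± 0.236, again without overlap and with the same p-values, and C8a to C8g averaged 1.42 ± 0.210 against 1.90 ± 0.407, with overlap. C8a and C8b are neighbours on chromosome 4, on opposite strands at chr4:104815679-104876398 and chr4:104766317-104804548, and C8g lies on chromosome 2. Of 10 ratios formed from pairs picked by hand, 3 did not overlap and reached 0.0286, the smallest p the design allows. None passed after adjustment.

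**Figure D2:**
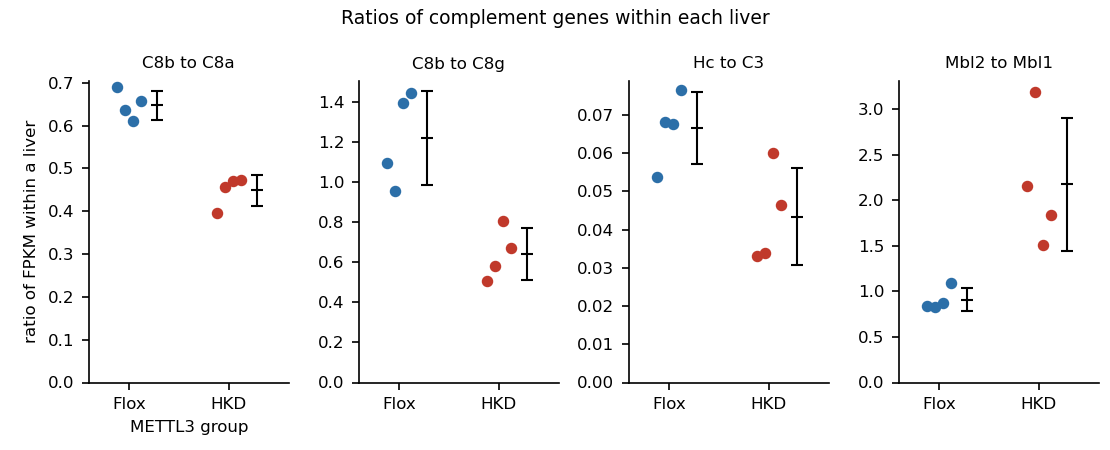
Ratio of FPKM between pairs of complement genes within each liver, for C8b to C8a, C8b to C8g, Hc to C3 and Mbl2 to Mbl1, each with its own axis from 0; points are livers and bars the mean ± SD of 4 livers. C8b to C8a averaged 0.449 in METTL3-HKD and 0.648 in METTL3-Flox livers without overlap, Mbl2 to Mbl1 averaged 2.17 and 0.906, and Hc to C3 overlapped.

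Soluble regulators stop the cascade in plasma, and 4 of the 6 members were lower. Serping1, the C1 inhibitor, which blocks C1r, C1s and the MASP proteases, was at 254, 296, 320.1 and 319 FPKM in METTL3-HKD and at 573, 446, 524 and 420.1 FPKM in METTL3-Flox livers. The METTL3-HKD livers lay close together and far below the lowest METTL3-Flox liver. Its log2 fold change was -0.72 ± 0.14 (adjusted p = 0.0134). Vtn, which encodes vitronectin, a binder of the terminal complex and of extracellular matrix, had the highest level after C3 and was at 782, 932, 1260.2 and 1376 FPKM in METTL3-HKD and at 2766, 2011, 2064 and 1646 FPKM in METTL3-Flox livers. METTL3-HKD 1 was lowest, METTL3-Flox 1 highest, and the groups did not overlap (log2 fold change -0.98 ± 0.24, adjusted p = 0.0280).

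Cfi, the protease that cuts C3b and C4b with the help of cofactors, was at 193, 209, 248 and 278 FPKM in METTL3-HKD and at 367, 338, 351 and 322 FPKM in METTL3-Flox livers. C4bp, one of those cofactors, was at 111, 87.3, 135 and 153 FPKM in METTL3-HKD and at 211, 184, 169 and 176 FPKM in METTL3-Flox livers. The groups did not overlap in either gene, and the gap was narrowest between METTL3-HKD 4 and METTL3-Flox 3 in C4bp. The log2 fold change was -0.58 ± 0.13 for Cfi (adjusted p = 0.0231) and -0.63 ± 0.17 for C4bp (adjusted p = 0.0401), and the call of C4bp was lost on the scale of reads on genes (log2 fold change -0.42, adjusted p = 0.0584). Clu, the chaperone clusterin, averaged 536 ± 70.5 against 681 ± 136 FPKM and was not called (log2 fold change -0.33 ± 0.17, adjusted p = 0.212). Cfhr2, counted here among the soluble regulators, averaged 176 ± 43.3 against 228 ± 20.9 FPKM and was not called (log2 fold change -0.40 ± 0.18, adjusted p = 0.155), and 29.2% of its 50-base windows occur in other genes.

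The 3 members that act on the cell membrane were low in these livers, and neither of those tested was called. Cr1l, which encodes the rodent regulator Crry, was at 3.21, 3.75, 4.28 and 4.46 FPKM in METTL3-HKD and at 4.18, 4.13, 4.24 and 3.84 FPKM in METTL3-Flox livers. The groups overlapped (log2 fold change -0.07 ± 0.12, 95% interval -0.34 to 0.20). Cd55, which speeds the decay of convertases, averaged 3.94 ± 0.656 against 3.95 ± 0.785 FPKM with a log2 fold change of 0.00 ± 0.17 (95% interval -0.38 to 0.38). Cd46, a cofactor for the cleavage of C3b that in mice is largely restricted to the testis, held 5 to 9 reads per METTL3-HKD and 5 to 8 per METTL3-Flox liver and was not tested.

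**Figure D3:**
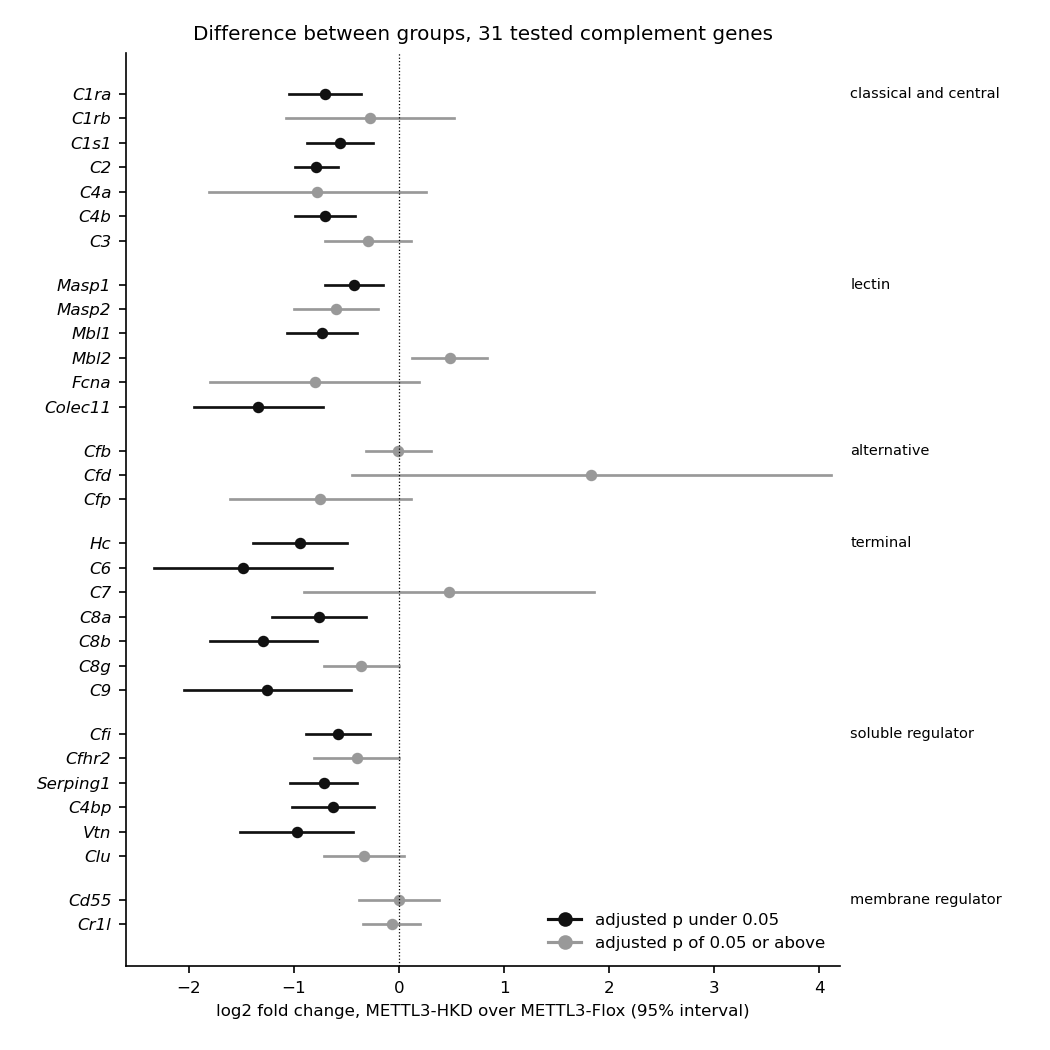
Log2 fold change of METTL3-HKD over METTL3-Flox for the 31 tested complement genes, with the 95% interval from limma; black marks an adjusted p under 0.05 and grey the rest. The 16 black genes all lie left of 0, from -0.43 for Masp1 to -1.49 for C6, and Mbl2 lies at 0.48 in grey.

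Summed over roles, the terminal genes showed the lowest ratio of METTL3-HKD to METTL3-Flox means, 0.543, with 482 to 909 FPKM in METTL3-HKD and 1108 to 1294 FPKM in METTL3-Flox livers. For the soluble regulators the ratio was 0.605, with 1965 to 2863 FPKM in METTL3-HKD and 3325 to 5017 FPKM in METTL3-Flox livers. The ratio was 0.783 for the classical and central genes, 0.704 for the alternative pathway, 0.905 for the lectin genes and 0.976 for the membrane regulators, and in these last sets, but not in the classical set, the groups overlapped. Such ratios follow the highest genes of a role. In METTL3-Flox livers Vtn averaged 2122 of the 4051 FPKM of the soluble regulators. Cfp, which was not called, averaged 20.8 of the 24.0 FPKM of the alternative pathway. All 33 genes together summed to 5564 to 7148 FPKM in METTL3-HKD and 8022 to 10991 FPKM in METTL3-Flox livers, a ratio of 0.681, and to a ratio of 0.618 with C3 left out. As a share of all FPKM in a liver they made up 1.66 to 1.73% in METTL3-HKD and 1.96 to 2.29% in METTL3-Flox livers.

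The METTL3-HKD livers were not alike. Over the 16 members that were lower, METTL3-HKD 1 was the lowest of its group in 14 and METTL3-HKD 2 in the other 2, METTL3-HKD 3 was highest in 10 and METTL3-HKD 4 in 6. METTL3-HKD 1 and 2 both lay below METTL3-HKD 3 and 4 in 14 of the 16. Of the METTL3-Flox livers, METTL3-Flox 4 was lowest in 9. METTL3-HKD 1 also had the highest sum of neutrophil markers, 1622 FPKM against 330.0 to 544 FPKM in the other METTL3-HKD livers, and METTL3-HKD 1 and 2 the lowest sums of hepatocyte markers, 23794 and 25514 FPKM. The cholangiocyte markers summed to 119 to 369 FPKM in METTL3-HKD and 52.5 to 77.6 FPKM in METTL3-Flox livers. Nearly all of that sum was 1 gene, Spp1, at 108.6 to 355 FPKM in METTL3-HKD and 46.4 to 73.5 FPKM in METTL3-Flox livers. Of the 5 cholangiocyte markers tested 4, Krt19, Krt7, Sox9 and Spp1, were higher in METTL3-HKD livers, against 9.05% of all genes. Their log2 fold changes were 1.58, 1.23, 1.38 and 1.68 (adjusted p = 0.0167, 0.0347, 0.0305 and 0.0136). Krt7 kept its call in 5 of 15 alternatives and Sox9 in 10 of 16. The part of these cell types in the complement values was not tested.

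**Figure D4:**
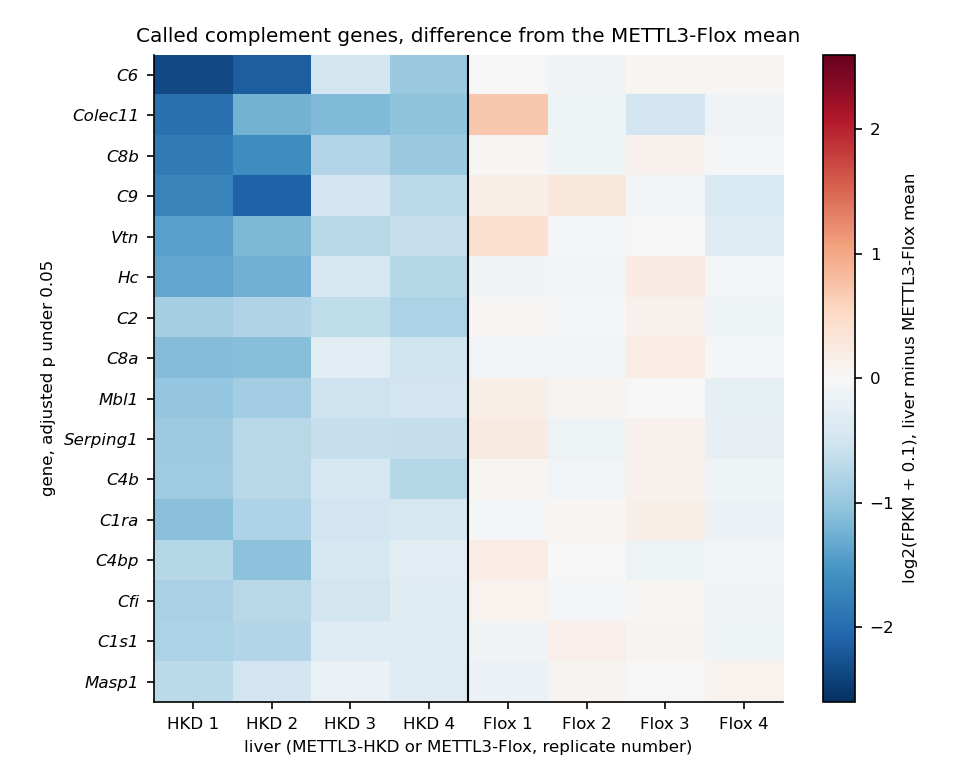
Difference of each liver from the METTL3-Flox mean on the log2(FPKM + 0.1) scale for the 16 complement genes with an adjusted p under 0.05, with METTL3-HKD livers left and METTL3-Flox livers right of the line, blue for lower and red for higher. METTL3-HKD 1 and 2 are the darkest columns, and METTL3-HKD 1 was the lowest of its group in 14 of the 16 genes.

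The other genes of the system were taken from a list of 25, of which 21 were tested. Of these, 8 were lower and 4 were higher, against 6.63% and 9.05% of all genes. The list sets 8 genes apart as receptors, and all 8 lower calls were among the 14 tested genes outside that set. Among them were the plasma or hepatocyte genes C1rl, a C1r-like protease (log2 fold change -0.70, adjusted p = 0.0303), and Cpn1 and Cpn2, the subunits of carboxypeptidase N, which trims C3a and C5a (-0.44 and -0.84, adjusted p = 0.0310 and 0.0223). Cd59a, an inhibitor of the membrane attack complex, had a log2 fold change of -0.55 (adjusted p = 0.0144), and Susd4 of -1.14 (adjusted p = 0.0457). C1qc, a chain of the C1q recognition protein made by macrophages, was at 13.3 to 24.2 against 24.4 to 56.2 FPKM (log2 fold change -0.98, adjusted p = 0.0436), and Vsig4, the C3b receptor of Kupffer cells that the list counts as a regulator, at 10.1 to 16.3 against 20.6 to 38.8 FPKM (log2 fold change -0.96, adjusted p = 0.0291). The other C1q chains C1qa and C1qb missed the threshold (adjusted p = 0.0709 and 0.0705). Of the 7 Kupffer cell markers 4 were lower, against 6.63% of all genes, and none of these calls held on the scale of reads on genes. In 3 of the 7 every METTL3-HKD liver lay below every METTL3-Flox liver, against 9.95% of all genes. The sums of these markers came as close as 149.47 and 149.83 FPKM, and the part of Kupffer cells in C1qc and Vsig4 was not tested. The count of 8 was 5 without METTL3-HKD 1, 2 or 4, 4 without METTL3-Flox 1, 2 or 4, 2 without METTL3-Flox 3 and 2 on the scale of reads on genes. The share of all genes called lower was 2.13 to 6.89% with single livers left out and 2.24% on the scale of reads on genes.

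Of the 7 genes tested from the receptor set, which leaves out Vsig4, 4 were higher, against 9.05% of all genes, and none was lower. C5ar1, the receptor for C5a, was at 13.9, 4.63, 4.03 and 5.88 FPKM in METTL3-HKD and at 1.04, 1.44, 1.28 and 0.701 FPKM in METTL3-Flox livers. METTL3-HKD 1 was highest and the groups did not overlap (log2 fold change 2.43 ± 0.37, adjusted p = 0.00679). Cd93, long named a C1q receptor of myeloid and endothelial cells, was at 4.75 to 11.1 against 1.88 to 2.65 FPKM (log2 fold change 1.66 ± 0.24, adjusted p = 0.00525). Itgam and Itgax, the alpha chains of complement receptors 3 and 4, had log2 fold changes of 1.79 and 1.53 (adjusted p = 0.0255 and 0.0475), and 3450 of the 5024 exon bases of Itgam are shared with Gm49368 on the same strand. The other 3 receptors tested, C3ar1, C5ar2 and Itgb2, were not called. The calls of C5ar1 and Cd93 held in all 16 alternatives, Itgam kept its call in 13 of 16 and Itgax, with 1 to 23 reads in METTL3-Flox livers, in 4 of 15 (adjusted p up to 0.124), and the count of 4 was 2 without METTL3-HKD 4 and 2 without METTL3-Flox 3. Of the 8 neutrophil markers 7 were higher, against 9.05% of all genes, with Ly6g at 0 FPKM in 3 of the 4 METTL3-Flox livers. Of the 4 monocyte markers tested, Ccr2 (log2 fold change 2.26, adjusted p = 0.00676) and Chil3 (4.19, adjusted p = 0.00389) were higher, against 9.05% of all genes. Ly6c2 was not called, at 0.485 to 6.77 FPKM in METTL3-HKD and 0.542 to 0.976 FPKM in METTL3-Flox livers (log2 fold change 1.27, adjusted p = 0.229). The 5 monocyte markers summed to 227 to 309 FPKM in METTL3-HKD and 255 to 299.6 FPKM in METTL3-Flox livers. Most of that sum was Fn1, which was not called, at 189.9 to 286.6 FPKM in METTL3-HKD and 251.9 to 297.8 FPKM in METTL3-Flox livers. The sum therefore says little about the other monocyte markers. The part of neutrophils and monocytes in the receptor values was not tested.

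Against other secreted products of the liver, the members were described by counts and medians alone. Of 20 coagulation genes 13 were lower and none higher, with a median log2 fold change of -0.53, and the smallest p-values belonged to Klkb1, plasma prekallikrein (-1.42, adjusted p = 0.00989), and F7, coagulation factor VII (-0.66, adjusted p = 0.0112). Of the 20 genes on the positive acute phase list 2 were lower, Saa4 (-1.18, adjusted p = 0.0112) and Lbp (-0.68, adjusted p = 0.0302), at a median of -0.60. Saa4 is the constitutive serum amyloid A, which the list counts among the acute phase genes. Of 19 other plasma protein genes of hepatocytes 2 were lower and 1 was higher, at a median of -0.40, and the smallest p-values were those of Itih1, an inter-alpha-trypsin inhibitor chain (-0.79, adjusted p = 0.0264), and Igfbp1 (2.05, adjusted p = 0.0265). The share of lower calls was 51.6% for complement, 65% for coagulation, 10% for the acute phase list and 10.5% for the other plasma proteins, beside 6.63% of all genes, and whether the lists differ was not tested. The acute phase count was 1 without METTL3-HKD 1, 3 or 4, without METTL3-Flox 1 or 3 and on the scale of reads on genes. Lbp kept its call in 8 of the 16 alternatives and Saa4 in all 16. The coagulation count was 4 without METTL3-HKD 1 or METTL3-Flox 2, 3 without METTL3-HKD 2 or METTL3-Flox 3, and 6 on the scale of reads on genes. Beside these counts, 2.13 to 6.89% of all genes were lower with single livers left out and 2.24% on the scale of reads on genes. The 2 lower calls of the other plasma proteins were lost without METTL3-HKD 1, METTL3-HKD 2, METTL3-Flox 1, METTL3-Flox 2 or METTL3-Flox 3, and the higher call without METTL3-HKD 2, METTL3-Flox 2 or METTL3-Flox 4.

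**Figure D5:**
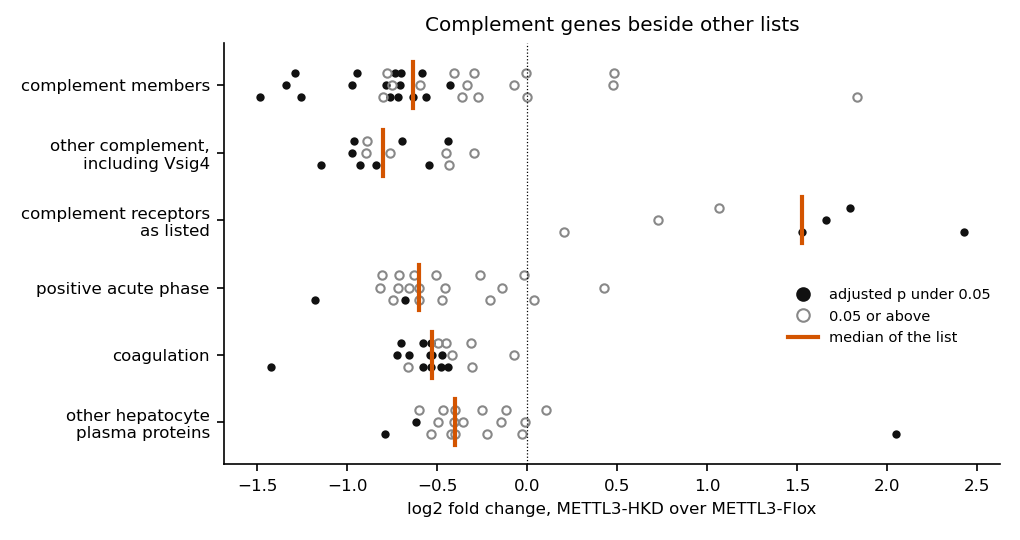
Log2 fold changes of METTL3-HKD over METTL3-Flox for the tested genes of 6 lists, 1 row per list with Vsig4 outside the listed receptors, with filled points for an adjusted p under 0.05 and open points for the rest and a bar at the median. The medians of the complement members, the acute phase list and the coagulation list lie at -0.63, -0.60 and -0.53, and that of the listed receptors at 1.53.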

How the data were processed

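The authors sequenced total RNA from liver tissue of 8 mice and deposited FPKM for 54532 genes with the gene length in bases. The part of the liver sampled, aligner, counter, annotation and strand setting are not given in the sources used here. The submitters' processing notes name GRCm38 and mm10, and 32 of the 33 members have the coordinates of GENCODE M21. Groups follow the labels. All 8 libraries were used, and no columns were left out.

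Reads were rebuilt from FPKM, gene length and the effective size of each library, and 100% of the non-zero values came out whole (within 0.01), with 15861245 to 18434488 reads per liver. The ratio of effective size to reads was 0.840 to 1.01 in METTL3-Flox and 1.01 to 1.17 in METTL3-HKD livers, so the values had been scaled between libraries. The 16645 genes that averaged 0.1 FPKM or more were compared as log2(FPKM + 0.1) with limma 3.58.1 (lmFit and eBayes with trend, two-sided) under R 4.3.3, and p-values were adjusted after Benjamini and Hochberg over all of them. Genes were called at an adjusted p under 0.05, and an absolute log2 fold change of at least 1 gave a second count. Single genes and the 10 ratios were compared by exact permutation over all 70 arrangements (two-sided, numpy 2.4.6, Python 3.11.15). On simulated data for this comparison (16328 genes) the fit called 185 of 200 changed and 8 unchanged genes. These counts describe the simulated data alone. Whether they hold at the fold changes and the spread between livers of the complement members was not tested. Reads count molecules and PCR copies alike, so precision from depth covers counting error only.

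The members and lists were chosen with earlier results of these data known. All members are named, with values in every liver for those past the threshold or without overlap and for the smallest p and highest mean of each role. Other complement genes are named where called, except for single genes not reported here, and comparison lists by their 2 smallest p-values. C1qa, C1qb, C3ar1, C5ar2, Itgb2 and the cell type markers printed beside a result fall outside this rule and were named after their values were seen. The larger overlaps of members with other genes, in 50-base windows of transcript sequence or in exon bases, are given beside them, and such values are uncertain. Alternatives were a pseudocount of 1 FPKM, a minimum of 1 FPKM, no minimum, scaling to the reads on genes, no trend, array quality weights, a replicate block, voom on rebuilt reads, and each liver left out.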

Additional observations from a re-analysis of the deposited data

Results flagged for a closer look

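Over the 33 complement genes in each group, 66 sets of 4 livers were examined for a single liver apart from the rest, by the gap to its neighbour as a share of the range (critical value 0.829, which chance passes in about 1 set in 20). Only 2 sets passed. Cfd in METTL3-Flox livers had a gap of 0.887, with METTL3-Flox 2 at 2.15 FPKM and the others at 0.305, 0.0713 and 0.27 FPKM. C8a in METTL3-Flox livers had a gap of 0.891, with METTL3-Flox 3 at 343 FPKM and the others at 285, 283 and 289 FPKM. Without METTL3-Flox 3 the difference of C8a was no longer called (log2 fold change -0.70, adjusted p = 0.093).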

How the results depend on the processing

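The number of members called lower, 16 with the deposited values, was 10 with no minimum, 10 with no mean-variance trend and 7 with a replicate block, and 6 to 17 with single livers left out. The members called higher, 0 as deposited, were 1 on the scale of reads on genes, 1 with array quality weights and 0 to 1 with single livers left out. Over all genes, 2309 were higher and 374 lower on the scale of reads on genes, 971 higher and 645 lower with the replicate block, 682 lower with no minimum, and 747 to 1659 higher and 355 to 1148 lower with single livers left out. The replicate block was tried because groups share replicate numbers. Deviations of same-numbered livers correlated at 0.071, -0.084, -0.013 and -0.034, and those of differently numbered livers at -0.067 to 0.094. No pairing by number was detectable in them, which does not show that there was none. Near-zero differences changed sign. Cfb (-0.0054) moved to 0.20 on the scale of reads on genes and lay between -0.067 and 0.10 with single livers left out, above 0 without METTL3-HKD 2, 3 or 4 or METTL3-Flox 3. Cd55 (0.0013) moved to -0.017 with array quality weights, and lay between -0.10 and 0.11 with single livers left out, under 0 without METTL3-HKD 1 or 2 or METTL3-Flox 2 or 3. Cr1l (-0.07) moved to 0.14 on the scale of reads on genes and lay between -0.13 and 0.019 with single livers left out, above 0 without METTL3-HKD 1. Mettl3 (-0.16) moved to 0.047 on that scale. Over members and alternatives, 401 values kept direction and side of the threshold, 72 lost the call, 7 gained it and 12 changed sign. The cause was not tested. With 4 livers a group, the smallest change called among members was 1.345-fold (Masp1), and low genes (C1rb, C1s2, Cd46) rest on few reads.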
